A study of Mus musculus with 4 samples.

Results

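Gata1, Gata2, Klf1, Gfi1b, Zfpm1 and Tal1 are 6 transcription factor genes that control the erythroid, megakaryocytic and mast cell branches of blood formation. They were taken by name from the gene rows of the deposited files, and all 6 were found, of 32263 gene names. The cells came from the bone marrow of C57BL/6 mice and were sorted as lineage-negative, Sca1-positive and cKit-positive (LSK), a fraction that holds blood stem cells and early progenitors. The study set leukaemic against normal cells, with and without drug. There were 4 groups of 1 inDrop single-cell library each: mice labelled WT, and mice labelled CML (chronic myeloid leukaemia), either untreated or given imatinib. Imatinib inhibits the BCR-ABL kinase that drives this leukaemia, and it also inhibits Kit, 1 of the surface proteins used in the sort. Treated WT and treated CML mice received 400 mg/kg by gavage every other day; 1 label gives 30 days and another 4 weeks. How the leukaemia was produced in the CML mice, the ages of the animals and how many animals went into a library are not given in the sources used here.

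GATA factors bind DNA at short GATA motifs through zinc fingers. In the classical account of erythropoiesis Gata2 acts first, in stem cells and early progenitors, and Gata1 replaces it on shared sites as cells mature, a handover known as the GATA switch. Zfpm1 encodes FOG1, the cofactor that GATA1 needs for this in red cell and platelet precursors. Tal1 encodes a basic helix-loop-helix factor that joins GATA factors in a complex with Lmo2 and Ldb1. Klf1 encodes the erythroid Krüppel-like factor, which binds CACCC motifs and activates the adult beta-globin gene. Gfi1b encodes a zinc finger repressor required in red cell and platelet precursors. Mast cells and basophils keep Gata2 on, and mast cells also use Gata1.

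Sequence upstream of the start sites was available for all 6 genes, in 8 RefSeq entries (GRCm38.p6). It was searched over 250 bases before the start, on both strands, for GATAA, the core of a GATA site, and for CACCC, the core that KLF1 binds; the motifs do not overlap each other. GATAA was present in 22.6% of the 32851 mouse promoters of this table, CACCC in 52.0% and both in 10.1%. Both motifs were present upstream of 3 of the 6 genes, Klf1, Gfi1b and Tal1. Shown here are the 4 genes on which the results below turn: Klf1 and Gfi1b, which hold both motifs, Gata1, which holds CACCC only, and the upstream start of Gata2, which holds neither. Capitals mark GATAA and CACCC or their reverse complements, TTATC and GGGTG; a match is only a match of letters. Each is written 5′ to 3′ on the strand of its gene and ends at the base before the start, except that of Klf1, from which the last 54 bases are left out because GENCODE vM21 annotates them as exon.

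Klf1, chr8:84901732-84901927, plus strand: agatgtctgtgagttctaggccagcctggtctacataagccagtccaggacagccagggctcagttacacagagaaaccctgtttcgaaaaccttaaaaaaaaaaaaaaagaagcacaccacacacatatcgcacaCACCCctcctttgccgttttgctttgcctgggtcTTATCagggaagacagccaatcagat
Gfi1b, chr2:28621983-28622232, minus strand: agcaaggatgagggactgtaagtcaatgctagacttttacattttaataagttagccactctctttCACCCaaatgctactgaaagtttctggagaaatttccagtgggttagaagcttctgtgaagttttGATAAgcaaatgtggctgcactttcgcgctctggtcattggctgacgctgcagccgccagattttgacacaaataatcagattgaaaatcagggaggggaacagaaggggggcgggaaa
Gata1, chrX:7967911-7968160, minus strand: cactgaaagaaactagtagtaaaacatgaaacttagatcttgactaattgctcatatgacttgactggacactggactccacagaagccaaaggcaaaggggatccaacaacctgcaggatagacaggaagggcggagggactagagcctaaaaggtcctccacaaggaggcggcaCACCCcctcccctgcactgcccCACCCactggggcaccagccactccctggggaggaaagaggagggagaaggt
Gata2, chr6:88193641-88193890, plus strand: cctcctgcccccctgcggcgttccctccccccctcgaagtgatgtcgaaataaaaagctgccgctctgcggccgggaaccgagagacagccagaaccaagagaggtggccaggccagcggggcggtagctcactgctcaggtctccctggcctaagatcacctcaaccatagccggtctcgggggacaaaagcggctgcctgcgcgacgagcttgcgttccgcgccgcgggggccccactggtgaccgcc

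In Klf1 the CACCC match began 114 bases and the GATAA match, on the other strand, 80 bases before the start. In Gfi1b CACCC began 184 and GATAA 119 bases before it. The Gata1 stretch carried CACCC at 74 and at 52 bases. It lies inside the GENCODE gene (chrX:7959260-7978071, minus strand), which has a further start upstream, and in none of its annotated exons. The other genes lie at chr6:88193891-88207032 (Gata2), chr8:84901928-84905291 (Klf1), chr2:28609450-28621982 (Gfi1b, minus strand), chr8:122282141-122337251 (Zfpm1) and chr4:115056426-115071755 (Tal1). Zfpm1 overlaps 1 other annotated gene on the same strand, Gm20388, so its reads could be shared with it.

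The deposited values gave back whole UMI counts (a UMI is a molecular tag, so that each stands for 1 captured transcript). After filtering, 3030 cells of WT untreated and 4187 of WT imatinib were kept, and 3032 of CML untreated and 5139 of CML imatinib, with 8245224 to 21283108 UMIs per library. The median cell held 3637.5, 1486, 5160.5 and 1198 UMIs in that order, so single cells of the treated libraries were shallower. Levels are given as CPM, the UMIs of a gene per 1000000 UMIs of the summed cells. The capture of a transcript differs by gene, so levels are compared between libraries and cells, never between genes. The libraries also differed in cell content: neutrophils made up 5.11% of WT imatinib and 9.55% of CML imatinib cells, against at most 0.0330% in the untreated libraries. Ly6a, the gene of the sorting marker Sca1, was at 192 and 95.8 CPM in the untreated WT and CML libraries and at 49.6 and 51.0 CPM in the treated ones; Kit was at 136 to 176 CPM in all 4. The part of this shift in the results below was not tested in general; leaving out T cells, plasma cells and neutrophils changed no count of factors at least 2-fold apart. Xist, transcribed in female cells, stood at 2375 CPM in CML untreated and at 1.52 and 3.15 CPM in the WT libraries. In CML imatinib Xist was far below CML untreated but well above both WT libraries. Ddx3y, on the Y chromosome, stood at 29.4 to 45.2 CPM in the 3 libraries other than CML untreated, CML imatinib being the highest. It was far lower in CML untreated. CML imatinib thus carried RNA of both genes, and where its Xist RNA came from was not tested. The sex of the animals thus differed in both comparisons that use CML untreated and cannot be told apart from the group there. What part sex has in the comparison of the treated libraries was not tested. The WT libraries shared 1134 cell barcode names, while other pairs shared 80 to 340. Cells with the same name were not alike (median correlation of -0.003 over 1400 genes). With 1 library per group there is no test: 95% intervals are exact and cover counting error only, and 2-fold is the size from which a gap is counted. Comparisons that use the same library share its errors.

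Untreated CML and WT cells carried the 6 factors at nearly the same level. Gata1 was at 71.6 CPM in WT untreated and 74.0 CPM in CML untreated, a log2 ratio of 0.05 (95% interval -0.07 to 0.17). Gata2 was at 194 and 177 CPM (log2 ratio -0.13). Zfpm1 stood at 43.5 and 40.8 CPM, Tal1 at 49.6 and 56.1 CPM, Klf1 at 17.6 and 21.3 CPM and Gfi1b at 35.0 and 29.5 CPM. The widest gap was that of Klf1, 1.21-fold. None of the 6 was 2-fold apart, where 1.11% of all 8916 genes measured were (0.729% higher and 0.381% lower in CML). The intervals of Gata2, Klf1, Gfi1b and Tal1 did not include 0, so these gaps exceed counting error, but with 1 library each they cannot be told apart from the spread between animals. The sign for Gata1 turned in 4 of 9 other ways of processing; the other 5 factors kept theirs in all 9.

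In WT cells every factor was lower after imatinib, and 5 of the 6 were at least 2-fold lower. Across all genes measured, 6.72% were 2-fold lower and 8.36% 2-fold higher. Gata1 went from 71.6 to 6.55 CPM, or 10.9-fold lower (log2 ratio -3.45, interval -3.87 to -3.05). Its UMIs were found in 420 of 3030 untreated cells but in only 39 of 4187 treated cells. Gfi1b, the repressor, went from 35.0 to 6.43 CPM (5.44-fold), Klf1 from 17.6 to 3.88 CPM (4.52-fold), and Zfpm1, the cofactor, from 43.5 to 10.8 CPM (4.03-fold). Gata2 was less reduced, from 194 to 92.8 CPM (2.09-fold, log2 ratio -1.06). Tal1 went from 49.6 to 25.3 CPM, a log2 ratio of -0.97 that just missed 2-fold. These directions held in all 9 alternatives, whereas the 2-fold size held in 7 for Gata2 and in all 9 for Gata1, Klf1, Gfi1b and Zfpm1. Without cells whose barcode name occurs in both WT libraries, 6 of 6 factors were at least 2-fold lower.

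**Figure D1:**
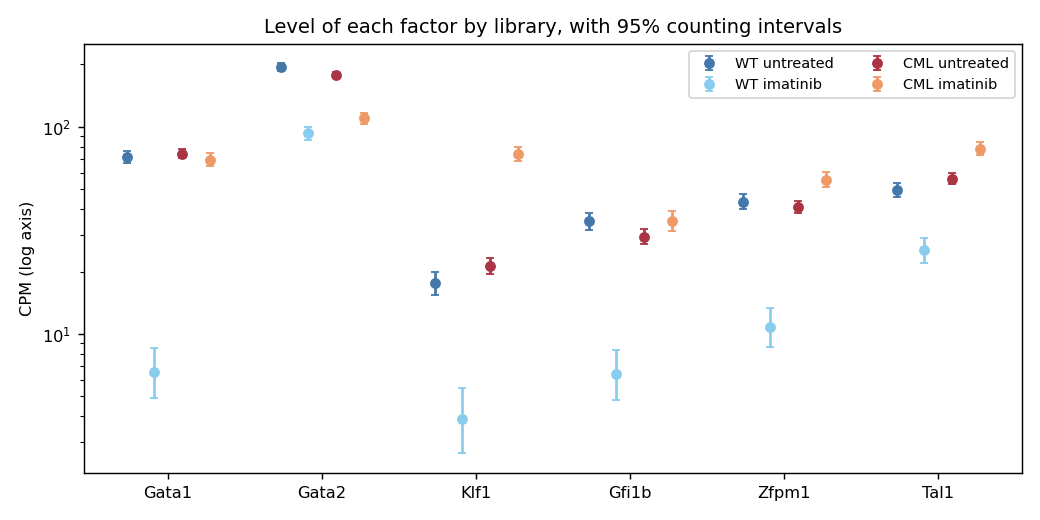
Level of each factor in the 4 libraries, in CPM on a log axis; each point is 1 library and bars are 95% counting intervals. The untreated WT and CML points lie side by side for each gene, the WT imatinib points are the lowest, and Klf1 in CML imatinib, at 73.7 CPM, stands above its other 3 libraries.

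In CML cells treated with imatinib the summed level of Klf1 was higher, that of Gata2 was lower and the other 4 factors were within 1.39-fold. Klf1 went from 21.3 CPM in CML untreated to 73.7 CPM in CML imatinib, 3.46-fold (log2 ratio 1.79, interval 1.62 to 1.97), the 1 factor of the 6 past 2-fold. In this comparison 11.5% of all genes were 2-fold higher and 7.96% 2-fold lower. Gata1 was at 74.0 and 69.4 CPM (log2 ratio -0.09, interval -0.23 to 0.04). Gata2 was 1.62-fold lower, at 177 and 109 CPM, and past 2-fold with TMM scaling, a correction for composition (log2 ratio -1.02). Tal1 (56.1 and 78.2 CPM), Zfpm1 (40.8 and 55.6 CPM) and Gfi1b (29.5 and 35.1 CPM) were 1.39-, 1.36- and 1.19-fold higher, but TMM scaling put Gfi1b at a log2 ratio of -0.07. The share of cells with a Gata1 UMI differed more than its level. Gata1 UMIs were found in 448 of 3032 untreated CML cells (14.8%) and 134 of 5139 treated ones (2.61%). With each cell thinned to 1000 UMIs, which left out 2059 shallower treated cells and no untreated one, the shares were 5.87% and 1.82%.

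These sums rested on few, deep cells. In CML imatinib the 257 deepest cells, those above 4460.3 UMIs, held 26.8% of all UMIs but 81.9% of the Gata1, 88.1% of the Klf1, 82.5% of the Zfpm1, 80.9% of the Gfi1b and 71.0% of the Tal1 UMIs. For Gata2 the share was 12.7%. These 257 cells included 82 of the 162 cells with at least 2 UMIs of Car1, a gene of early red cell precursors. They also included 59 of the 105 cells with at least 10 haemoglobin UMIs. In CML untreated the deepest 5% took in 27 of 229 Car1 cells, and in WT imatinib 0 of 31. Leaving out the deepest cells thus takes out Car1 cells unequally. The parts of depth and of this loss in the values below were not tested. The deepest 5% of CML untreated cells held 17.5% of all UMIs, 20.2% of the Gata1 and 32.0% of the Klf1 UMIs. For Gata2, Gfi1b, Zfpm1 and Tal1 the shares there were 5.91%, 13.5%, 12.7% and 12.1%. Without the deepest 5% of each library, Klf1 was at 17.5 CPM in CML untreated and 12.0 CPM in CML imatinib, and its log2 ratio turned to -0.54. Gata1 was then at 71.6 and 17.2 CPM (log2 ratio -2.06), Gfi1b at 30.9 and 9.16 CPM (-1.75) and Zfpm1 at 43.2 and 13.3 CPM (-1.70), so that 3 of 6 factors were at least 2-fold lower, against 8.76% of all genes. A mean over cells that gives every cell equal weight put Gata1 at a log2 ratio of -1.45, Gfi1b at -1.24, Zfpm1 at -1.05 and Klf1 at 0.17. In WT the directions held under both steps: without the deepest cells 5 of 6 factors were 2-fold lower (7.09% of all genes), with Gata1 at a log2 ratio of -3.30, and by the mean over cells 4 of 6 were, with Gata1 at -2.75 and Gata2 at -0.70.

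**Figure D2:**
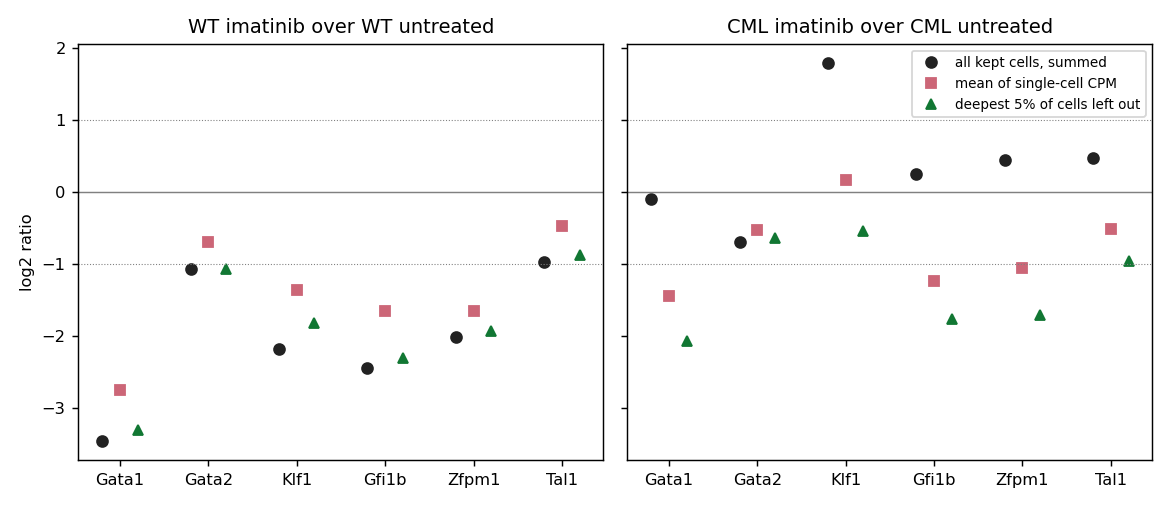
Log2 ratio of imatinib over untreated for each factor, in WT (left) and CML (right), from all kept cells summed (circles), the mean of single-cell CPM (squares) and without the deepest 5% of cells (triangles); dotted lines mark 2-fold. In WT the 3 values of each factor lie below 0; in CML the circles of Klf1, Gfi1b, Zfpm1 and Tal1 lie above 0 (Gfi1b at -0.07 with TMM scaling) and all triangles below it.

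Between the treated libraries, 5 of 6 factors were at least 2-fold higher in CML imatinib than in WT imatinib, against 3.82% of all genes. Klf1 was at 3.88 CPM in WT imatinib and 73.7 CPM in CML imatinib, with a log2 ratio of 4.25 (interval 3.74 to 4.81). Gata1 differed by a log2 ratio of 3.41, Gfi1b of 2.45, Zfpm1 of 2.36 and Tal1 of 1.63. Gata2, at 92.8 and 109 CPM, was 1.18-fold higher in CML. Without the deepest 5% of cells only Gata1 (log2 ratio 1.16) and Klf1 (1.42) were 2-fold higher (1.74% of all genes), and Gfi1b (0.29), Zfpm1 (0.15) and Tal1 (0.14) were close in both.

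Cells were next grouped by an anchor gene: Car1, a carbonic anhydrase of early red cell precursors, Pf4, a platelet granule protein, and Cpa3, a mast cell protease, each at 2 or more UMIs, and Hlf, a stem cell transcription factor, at 1 or more. A deep cell passes such a rule more easily than a shallow one. Of the erythroid markers, 8 of 11 were at least 2-fold higher in Car1 cells than in cells with no anchor in both untreated libraries, 11 of 11 in CML imatinib and 5 of 11 in WT imatinib. The Pf4 cells had 10 of 10 megakaryocyte markers up in both untreated libraries. In WT imatinib 8 of 10 were up, but these 39 cells also carried Mpo, a granulocyte enzyme, at 5532 CPM, near the 5964 CPM of WT imatinib cells with no anchor. In CML imatinib only 10 cells passed, so counts alone are given. Cpa3 cells had 9 of 9 mast and basophil markers up in 3 libraries. In WT untreated 5 of 9 were up, Tpsb2 and Prss34 were at 0 and the summed level was 320 CPM, against 6008 CPM in CML untreated and 17420 and 26627 CPM in the treated CML and WT libraries, so the mast and basophil genes were lowest in these WT untreated cells. Hlf cells had 3 or 4 of 9 stem markers up, and in CML imatinib 1 of 9 with 7 of 11 erythroid markers; there the data go against a stem cell name.

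In the untreated libraries Car1 cells carried all 6 factors above cells with no anchor gene. There were 171 such cells in WT untreated, 31 in WT imatinib, 229 in CML untreated and 162 in CML imatinib. Against cells with no anchor, 6 of 6 factors were at least 2-fold higher in both untreated libraries, where 3.63% (WT) and 4.04% (CML) of all genes were. In CML imatinib 5 of 6 were, against 15.3% of genes; the exception was Gata2. Klf1 was at 142 CPM in Car1 cells and 8.98 CPM in cells with no anchor of WT untreated, and at 155 and 8.39 CPM in CML untreated. Gata1 reached 340 against 43.7 CPM in WT untreated and 323 against 40.5 CPM in CML untreated. Car1 cells were 7.55% of CML untreated cells and held 71.1% of its Klf1 UMIs but 13.3% of its Gata2 UMIs. Between the untreated libraries no factor was 2-fold apart in Car1 cells, where 3.64% of genes were.

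In Car1 cells of CML imatinib the levels differed from those of CML untreated: Gata2 was lower, Gata1 was level, and Klf1, Zfpm1 and Tal1 were higher. Gata2 was at 332 CPM in WT untreated, 242 CPM in CML untreated and 36.9 CPM in CML imatinib, the last 2 a log2 ratio of -2.71 apart (interval -3.14 to -2.31). Gata1 was level, at 340, 323 and 312 CPM. Klf1 stood at 142, 155 and 358 CPM, Zfpm1 at 138, 96.8 and 251 CPM, and Tal1 at 143, 119 and 303 CPM, so that 3 factors were 2-fold higher and 1 was 2-fold lower after imatinib. Of all genes in Car1 cells, 17.5% were 2-fold higher and 19.7% 2-fold lower. Gfi1b, at 134, 99.3 and 173 CPM, was higher by a log2 ratio of 0.80. In WT imatinib the 31 Car1 cells held 3 UMIs of Gata1, 8 of Gata2, 7 of Klf1, 12 of Gfi1b, 4 of Zfpm1 and 11 of Tal1, too few to rank. Without the deepest 5% of cells the CML imatinib level of Tal1 in Car1 cells was 119 CPM, that of Klf1 237 CPM and that of Gata2 67.8 CPM, against 114, 131 and 327 CPM in CML untreated. Tal1 and Klf1 were then no longer 2-fold higher, while Gata2 was still more than 2-fold lower.

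Haemoglobin RNA set the Car1 cells of CML imatinib apart. At least 10 haemoglobin UMIs were found in 57 of the 162 cells, in 1 Car1 cell of each untreated library and in none of WT imatinib. These 57 cells held 284 Gata1 UMIs and 4 Gata2 UMIs, or 324 and 4.57 CPM. Klf1 was at 374 CPM in them. The other 105 cells had Gata1 at 295 CPM, Gata2 at 81.1 CPM and Klf1 at 337 CPM, so Gata2 was low in them too, and Klf1 high. The median depth of these groups differed, with 10793 and 1825 UMIs per cell; the part of depth in this difference was not tested.

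The balance within the GATA pair is given by the share of Gata1 among the UMIs of Gata1 and Gata2. In Car1 cells it was 50.6% in WT untreated (317 of 626 UMIs, interval 46.6% to 54.6%), 57.1% in CML untreated and 89.4% in CML imatinib (473 of 529 UMIs, interval 86.5% to 91.9%). In WT imatinib it was 27.3% of 11 UMIs, with an interval from 6.02% to 61.0%. Within the CML imatinib Car1 cells, the share was 98.6% in cells with at least 10 haemoglobin UMIs and 78.4% in the others. Thinning to 1000 UMIs gave 52.8% in WT untreated (interval 38.6% to 66.7%) and 54.4% in CML untreated (42.8% to 65.7%). It gave 81.2% in CML imatinib (63.6% to 92.8%), so the 2 CML intervals overlapped after thinning. In Hlf cells it was 15.7% in WT untreated, 0 of 18 UMIs in WT imatinib, 23.3% in CML untreated and 61.2% in CML imatinib. The last value was not stable. It was 39.1% without cells of at least 10 haemoglobin UMIs and 0% after thinning (interval up to 41.0%). Without cells of more than 1 anchor, the Hlf shares were 8.74% in WT untreated, 14.9% in CML untreated and 37.5% in CML imatinib. Cpa3 cells had low shares, with 22.0% in WT untreated, 13.1% in CML untreated, 4.55% in WT imatinib and 2.43% in CML imatinib. In Pf4 cells of the untreated libraries it was 27.7% in WT and 38.2% in CML.

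**Figure D3:**
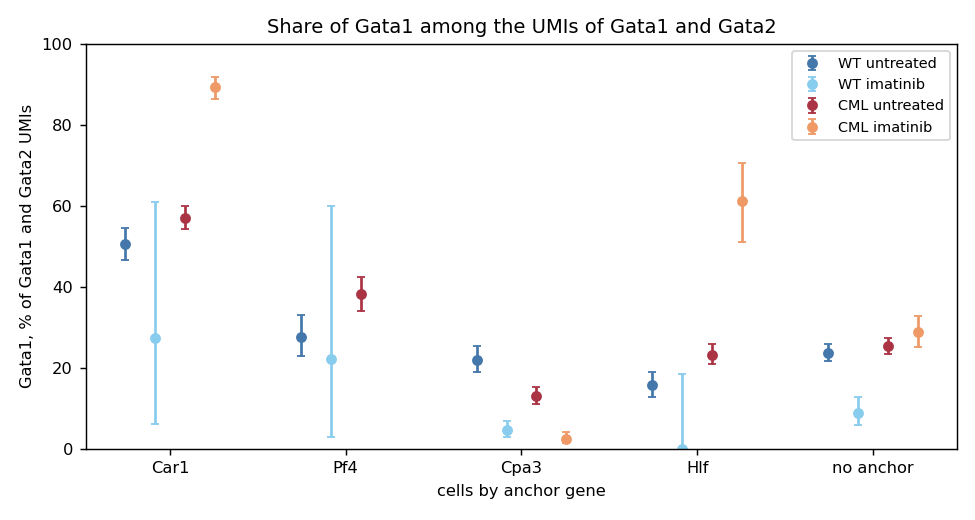
Share of Gata1 among the UMIs of Gata1 and Gata2, in percent, for cells with each anchor gene and with none; points are single libraries and bars are 95% binomial intervals. Car1 cells of CML imatinib reach 89.4% and Cpa3 cells of both treated libraries lie under 5%; the Pf4 group of CML imatinib, with 10 cells, is not drawn.

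Pf4 cells carried the factors without Klf1. They numbered 112 in WT untreated, 39 in WT imatinib and 119 in CML untreated. Gata2 was at 445 CPM and Gata1 at 170 CPM in WT untreated, and at 309 and 191 CPM in CML untreated. Zfpm1 stood at 151 and 132 CPM, Gfi1b at 103 and 79.8 CPM and Tal1 at 85.1 and 112 CPM. All 4 factors with enough UMIs in WT untreated, and all 5 in CML untreated, were at least 2-fold above the cells with no anchor, where 1.45% and 2.84% of genes were. Klf1 gave 7 UMIs (13.5 CPM) and 5 UMIs (4.75 CPM), with intervals that include its level in cells with no anchor. None of the 5 factors measured was 2-fold apart between these untreated cells, where 5.63% of genes were. In WT imatinib Gata2 was at 54.5 CPM from 7 UMIs, Gata1 gave 2 UMIs and Klf1 0, and 4 of 4 measured factors were 2-fold lower than in WT untreated, against 26.3% of genes. These 4 gave at most 8 UMIs each in WT imatinib and passed the floor through WT untreated alone. They could thus not have been counted as higher, and no direction is read from this count. With Itga2b, the platelet integrin, also required, Gata2 was at 490 CPM in WT untreated and 68.2 CPM in WT imatinib. The 10 cells of CML imatinib held 3 UMIs of Gata1, 2 of Gata2, 2 of Gfi1b, 1 of Zfpm1, 2 of Tal1 and 0 of Klf1.

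Cpa3 cells were rich in Gata2, most of all after imatinib. They numbered 268 in WT untreated, 192 in WT imatinib, 246 in CML untreated and 344 in CML imatinib. Gata2 was at 413 CPM in WT untreated, 1544 CPM in WT imatinib, 481 CPM in CML untreated and 992 CPM in CML imatinib. It was thus higher after imatinib by a log2 ratio of 1.90 in WT (interval 1.72 to 2.08) and 1.05 in CML (lower bound 0.89), while its level per library was lower in both. Of all genes in Cpa3 cells, 5% in WT and 5.53% in CML were 2-fold higher. Against cells with no anchor, 4 of 5 measured factors were 2-fold higher in WT untreated (0.769% of genes) and 2 of 5, Gata2 and Tal1, in CML untreated (2.02%). Gata2 was the 1 factor with enough UMIs in the treated libraries, and it was higher by log2 ratios of 5.41 in WT (1.82% of genes were 2-fold higher) and 4.16 in CML (1.48%). The 192 treated WT cells held 60.4% of the Gata2 UMIs of their library and the 344 treated CML cells 53.7%, compared with 20.3% and 23.8% in the untreated libraries. Prss34, a basophil protease, was at 19181 CPM in Cpa3 cells of WT imatinib and 4561 CPM in those of CML imatinib, but at 0 CPM in WT untreated and 3.20 CPM in CML untreated, so the treated and untreated Cpa3 cells differ in kind and what part this has in the Gata2 difference was not tested.

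Of the other factors in Cpa3 cells, Gata1 and Gfi1b were lower in CML imatinib than in CML untreated. Gata1 was at 117 CPM in WT untreated, 73.5 CPM in WT imatinib, 72.6 CPM in CML untreated and 24.8 CPM in CML imatinib. With the libraries in that order Gfi1b was at 46.3, 53.5, 31.0 and 12.4 CPM, Tal1 at 62.3, 110, 78.5 and 51.3 CPM, and Zfpm1 at 57.5, 30.1, 38.5 and 28.3 CPM. In CML imatinib Gata1 and Gfi1b were 2-fold lower than in CML untreated (log2 ratios -1.55 and -1.32), where 17.5% of genes were. Klf1 gave 3 to 20 UMIs per library and stayed between 9.58 and 21.2 CPM.

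Hlf cells of the untreated libraries held the factors close to the level of cells with no anchor. Gata2 was at 212 CPM in the 489 WT and 172 CPM in the 654 CML cells, log2 ratios of 0.59 and 0.53 over cells with no anchor, and none of the 4 (WT) and 5 (CML) factors measured was 2-fold apart (2.38% and 2.43% of genes were). Gata1 was at 39.3 and 52.2 CPM, and Klf1 gave 8 and 39 UMIs. In the 115 Hlf cells of WT imatinib, Gata2 was at 79.5 CPM, and Gata1, Klf1 and Gfi1b gave 0 UMIs; with a floor of 3 UMIs, Gata1 was at least 2.96-fold lower than in WT untreated. In the 115 of CML imatinib, Gata1 was at 150 CPM and Klf1 at 172 CPM. These values rest on few cells: 11 of the 115 were also Car1 cells, and without the deepest 5% of cells Gata1 gave 0 CPM and Klf1 17.9 CPM.

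**Figure D4:**
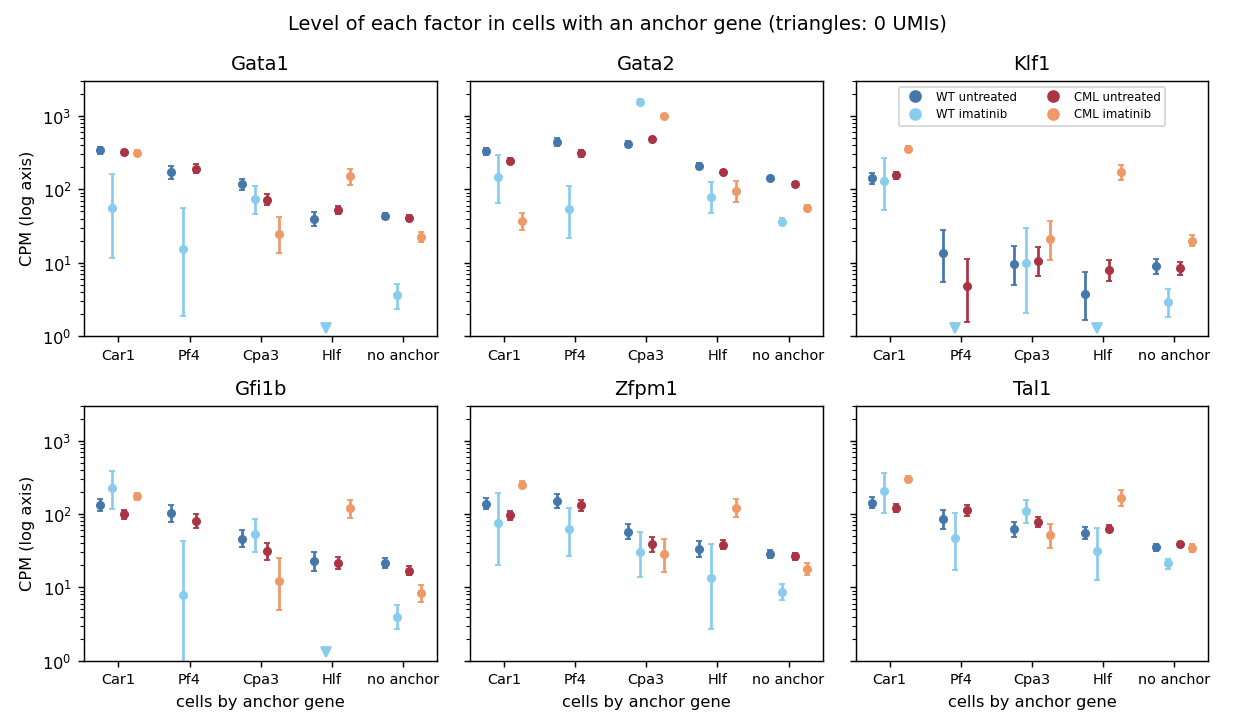
Level of each factor, in CPM on a log axis, in cells with each anchor gene and with none, 1 panel per factor; points are single libraries, bars 95% counting intervals and triangles 0 UMIs, and groups under 20 cells are not drawn. Klf1 is high in Car1 cells of all 4 libraries and Gata2 is highest in Cpa3 cells of the treated libraries.

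Cells with no anchor repeated the WT response. In them Gata1 went from 43.7 to 3.57 CPM in WT (log2 ratio -3.61) and from 40.5 to 22.5 CPM in CML (-0.85). Of the factors measured there, 4 of 5 were 2-fold lower in WT, against 6.44% of genes. In CML, Gata2 (-1.10) and Gfi1b (-1.01) were 2-fold lower and Klf1 (1.26) 2-fold higher, against 7.38% and 10.9% of genes; 46 of these 4531 treated CML cells held at least 10 haemoglobin UMIs.

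Which factors were seen together in a cell was counted after thinning each cell to 1000 UMIs. Gata2 was found in 12 of 42 Klf1 cells of WT untreated (28.6%) and 17 of 50 of CML untreated (34.0%), above its 16.9% and 15.5% among all cells. In CML imatinib it was found in 2 of 62 Klf1 cells (3.23%), against 5% of all cells. Gata1 was found in 13 of those 62 Klf1 cells (21.0%), against 1.82% of all cells. It was found in 10 of 42 Klf1 cells of WT untreated (23.8%) and 5 of 50 of CML untreated (10%). Among all cells of these untreated libraries its shares were 5.51% and 5.87%. In WT imatinib only 9 cells had a Klf1 UMI. Cells with no factor at all made up 71.6% of WT untreated, 72.4% of CML untreated, 91.9% of WT imatinib and 88.4% of CML imatinib. Free RNA can place a UMI in a cell that does not express the gene. Plasma cells of WT untreated, with a median of 5892.5 UMIs, gave a Gata1 UMI in 0 of 92 cells, which allows a share of up to 3.26% (3 cells of the total), and a Gata2 UMI in 3. Neutrophils gave a Gata1 UMI in 0 of 214 cells in WT imatinib and 3 of 491 in CML imatinib. For Gata2 the neutrophil share after thinning was 4.85% in CML imatinib, beside 5% of all its cells and 31.5% of its Cpa3 cells. What part free RNA has in these shares was not tested.

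The genes around the factors were followed through 5 lists. Of 12 partners and complex members, none was 2-fold higher after imatinib; 1 was 2-fold lower in WT and 3 in CML, against 6.72% and 7.96% of all genes. Cbfa2t3, the ETO2 corepressor of the TAL1 complex, was 2-fold lower in WT (176 to 76.8 CPM) and CML (210 to 61.0 CPM). Rcor1, the CoREST protein that GFI1B recruits, went from 187 to 75.6 CPM in CML, and Tcf12, a helix-loop-helix partner of TAL1, from 92.2 to 44.4 CPM. Lmo2 went from 319 to 171 CPM in WT. The medians of this list were -0.67 in WT and -0.52 in CML on the log2 scale, against -0.03 and 0.01 for all genes.

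Among erythroid target genes, 6 of 7 measured were 2-fold lower after imatinib in WT, where 6.72% of all genes were. They included Car2, a carbonic anhydrase, from 550 to 59.2 CPM, and Aqp1, a water channel, from 74.8 to 7.88 CPM. In CML 19 targets passed the floor on low values, against 9 in the untreated pair. Those that passed through the treated library alone had to be higher there, so no count is read from them. Hbb-bs, an adult beta-globin, went from 4.56 to 824 CPM in CML and Slc4a1, the band 3 anion exchanger, from 0.517 to 54.9 CPM. Of the megakaryocyte targets 4 of 8 were 2-fold lower in WT and 5 of 7 in CML, against 6.72% and 7.96% of all genes. An exception was Ppbp, a platelet chemokine, 2-fold higher in WT at 1.14 and 29.6 CPM. Plek, a platelet signalling protein, went from 94.0 to 27.9 CPM in WT and from 95.9 to 25.3 CPM in CML. Mast and basophil targets were 2-fold higher in 7 of 10 in WT (8.36% of all genes) and 4 of 12 in CML (11.5%), where 1 was lower. They were higher in 8 of 11 in CML untreated over WT untreated (0.729%). Some of these, such as Prss34, passed the floor on low values only through the library where they were high. Of 12 other fate factors, Spi1, the myeloid factor PU.1, went from 100 to 241 CPM in CML, and Gata3, the lymphoid GATA factor, from 32.3 to 3.64 CPM in WT and from 27.8 to 2.31 CPM in CML.

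The genes whose level was most like that of each factor were found over 18 points, the library and cell group sums of at least 100000 UMIs, among 6118 genes; points of a library share its depth and its composition, so the correlations only describe. Gata1 was closest to Gfi1b (Pearson r of 0.97 on log levels), then to Hmgb3 (0.94) and Mlf2 (0.93). Klf1 was closest to C1qtnf12, Abcb4 and Ermap (0.98 each), the last a red cell surface protein. For Gata2 they were Igf1r (0.93), Slc18a2 (0.89), the vesicle transporter that loads histamine in mast cells, and Slc22a3 (0.86). Zfpm1 was closest to Cttn (0.92), Hmgb3 and Gfi1b (0.90 each). Tal1 came closest to a row whose name is a date in the files (0.93), then to Gfi1b (0.92) and Vegfb (0.91). Among the 6, Gata2 stood apart: its r with the others ran from -0.10 (Klf1) to 0.31 (Gata1), whereas the other 5 lay between 0.68 and 0.97 of each other.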

How the data were processed

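Per the labels, poly(A) RNA of sorted cells was profiled by inDrop in 4 libraries. Partek 8.0 and Bowtie 1.1.1 are listed beside GRCm38 (mm10), per the submitters' processing notes; their roles are not given in the sources used here. The authors deposited 1 matrix of genes by cells per library as a normalized signal, with every cell scaled to about the same total. Dividing each cell by its smallest value gave whole counts for 100% of entries (tolerance 0.02). Headers carry 1 extra name, so cells were taken by position. Cells with at least 500 UMIs, 200 genes and at most 20% mitochondrial UMIs were kept and summed per library or anchor class. Ratios carry exact conditional binomial intervals, levels exact Poisson and shares exact binomial ones (95%). A gene was measured with at least 10 CPM and 50 UMIs on the higher side; a count of 0 was set to a floor of 3 UMIs. T cells needed 2 markers, plasma cells 10 Jchain UMIs and neutrophils 3 markers at 2 UMIs. No replicate exists, so no test was run. Named are the 6 factors, up to 4 members per list with the widest ratio among those of at least 20 CPM, and the closest genes by Pearson correlation. No doublet caller was run. Haemoglobin-rich, deep and barcode-sharing cells were singled out after their values were seen. The members and lists were chosen with earlier results of these data known. Scripts used Python 3.11.15, numpy 2.4.6, scipy 1.17.1 and, for TMM factors, edgeR 4.0.16; they were tested on simulated data.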

Additional observations from a re-analysis of the deposited data

Results flagged for a closer look

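Because the ratio of imatinib over untreated had opposite signs in WT and CML beyond counting error, 4 factors are listed here; the difference was not tested, since each group is 1 library. Subtracting the WT from the CML log2 ratio gave 3.97 for Klf1, 2.69 for Gfi1b, 2.45 for Zfpm1 and 1.45 for Tal1. In WT these ratios were -2.18, -2.44, -2.01 and -0.97, and in CML 1.79, 0.25, 0.44 and 0.48; with TMM scaling that of Gfi1b in CML was -0.07. Without the deepest 5% of cells the CML ratios were -0.54, -1.75, -1.70 and -0.95, so the signs then matched those in WT. That step also left out 82 of the 162 Car1 cells of CML imatinib, against 27 of 229 in CML untreated.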

How the results depend on the processing

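No paired analysis was possible because each group is 1 library and the labels give no replicate numbers. Of 216 log2 ratios of the factors recomputed under 9 alternatives, 140 stayed within their counting interval, 75 moved outside it and 1 called ratio changed sign, that of Klf1 in CML imatinib over CML untreated without the deepest 5% of cells (-0.54). For that pair the count of factors 2-fold higher went from 1 to 0, and of those 2-fold lower from 0 to 3, after thinning, without the deepest cells and by the mean of single-cell CPM; with TMM scaling 1 was lower. For CML imatinib over WT imatinib the 5 factors 2-fold higher became 3 after thinning and 2 without the deepest cells or by the single-cell mean. The Gata1 share in Car1 cells of CML imatinib, 89.4%, became 81.2% after thinning (interval 63.6% to 92.8%) and 78.4% without cells of at least 10 haemoglobin UMIs. TMM scaling shifts every log2 ratio by -0.17 (CML untreated over WT untreated), -0.25 (WT imatinib over WT untreated), -0.32 (CML imatinib over CML untreated) or -0.24 (CML imatinib over WT imatinib). Genes 2-fold higher and lower in those 4 pairs numbered 65 and 34, 769 and 618, 1098 and 760, and 350 and 19. With TMM they were 46 and 62, 525 and 1140, 605 and 1508, and 231 and 53. With a floor of 50 CPM they were 20 and 15, 310 and 223, 401 and 339, and 91 and 7; with a floor of 5 UMIs alone, 4557 and 476, 5176 and 1884, 6274 and 2410, and 4210 and 712. Without the deepest cells 158 genes were higher in CML imatinib than in WT imatinib. A floor changes how many genes enter; the cause of the other changes was not tested. The alternatives on cells that share a barcode name, hold haemoglobin or are deepest (for gene counts), and the Itga2b rule, were chosen after seeing the data. Of the values in anchor classes 728 stayed within their interval and 140 did not.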
